A study of Rattus norvegicus with 8 samples.

Results

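Interferon-induced genes were followed in rat dorsal root ganglia, the clusters of sensory neuron cell bodies beside the spinal cord, with their glia and immune cells. The members were found by gene symbol alone, with a pattern for the Irf, Stat, Ifi, Ifit, Ifitm, Isg, Oas, Mx, Gbp and Slfn families and for single genes such as Usp18, Ddx58, Dhx58, Zbp1, Bst2 and Rsad2. The pattern matched 53 of the 4351 genes in the 2 deposited tables. All 53 stood among the 4136 genes listed for imiquimod against untreated rats, and 4 of them also among the 775 genes listed for lidocaine against imiquimod. A table holds only genes whose group means differed by at least 1.00 on its log2 scale, so matching genes below that size were not analysed here and the listing is itself a selection on these libraries.

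RNA was sequenced in 8 libraries from Sprague Dawley rats of 250 g with a wild type genotype, and ganglia were taken on day 7. The WT group was left untreated (n = 3). In the IMQ group, imiquimod was put on the skin of the back for 6 days (n = 3). In the lidocaine group, the same imiquimod course was combined with 1% lidocaine, a sodium channel blocker, given epidurally on 4 days beginning on day 3 (n = 2). The labels describe neither a vehicle on the skin of WT rats nor an epidural injection without lidocaine, and they give no age and no level of the spine for the ganglia. They number the samples without stating whether each is its own animal, and p-values therefore reflect only the spread among these libraries, which may be technical. Relative depth, read from what 1 read is worth in each library, was 1.09 to 1.34 in WT, 0.808 to 0.912 in IMQ and 0.789 to 0.873 in lidocaine, and the listed genes held 4311091 to 9035486 reads a library in the first table and 254922 to 778890 in the second. Of 13 sensory neuron markers, 3 were listed for IMQ against WT, with a summed normalized count of 528500 to 1025000 in WT and 330200 to 340600 in IMQ.

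Interferons are secreted proteins that cells release on sensing foreign nucleic acid, and they set neighbouring cells into an antiviral state. Type I interferon acts through the kinases JAK1 and TYK2 to a complex with STAT2 and IRF9 that binds the interferon-stimulated response element (ISRE), while interferon gamma acts through the gamma-activated site (GAS). Many of the induced genes are themselves sensors, transcription factors or antiviral enzymes, so the response feeds back on itself. Imiquimod is an agonist of Toll-like receptor 7, an endosomal receptor for single-stranded RNA that signals through MYD88 and IRF7.

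The promoter sequences of the members are shown first, because both elements can be read from them. RefSeq sequences from 250 bases before to 50 bases after the annotated start (build GRCr8) matched 39 of the 53 members, 1 of them by an older symbol, with 42 starts in all; 14 members were not matched. The ISRE core searched was GAAA and a second GAAA with any 2 bases between them, and the GAS core was TTCNNNGAA, each on both strands. In 23 of the 39 members (59.0%) at least 1 start held an ISRE core, against 4.12% of the 27457 genes in the RefSeq table. A GAS core was found in 12 members (30.8%), against 9.39% of all genes, and both cores in 6 (15.4%), against 0.645%. In 1 member, Bst2, a GAS core overlapped an ISRE core, and 10 members held neither. Of the 31 ISRE matches, 27 lay between 150 bases and 1 base before the start. A match is a description of letters, not a measured binding site, and the build used by the authors is not given in the sources used here.

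The following windows come from members of 6 families with an ISRE core, written 5′ to 3′ on the strand of the gene, with the ISRE core in capitals. They are shown because the same short element recurs near the start of genes with unrelated protein products. In Irf7, Ifit3 and Parp12 the match is on the opposite strand and reads as TTTC on each side of the 2 free bases. In Gbp1 and Bst2 it forms a pair of overlapping cores. The windows are chr12:41439607-41439676 (plus strand) for Oas3, chr2:234072241-234072350 (plus strand, the second annotated start) for Gbp1, chr1:205800053-205800122 (minus strand) for Irf7, chr1:241527252-241527321 (plus strand) for Ifit3, chr4:68850542-68850589 (minus strand) for Parp12 and chr16:18255053-18255128 (minus strand) for Bst2.
Oas3: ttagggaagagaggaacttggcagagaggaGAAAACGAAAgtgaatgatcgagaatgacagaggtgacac
Gbp1: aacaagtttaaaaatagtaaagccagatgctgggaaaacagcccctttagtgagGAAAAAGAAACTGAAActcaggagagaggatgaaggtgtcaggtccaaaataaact
Irf7: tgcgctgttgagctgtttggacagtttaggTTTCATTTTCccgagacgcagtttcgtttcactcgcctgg
Ifit3: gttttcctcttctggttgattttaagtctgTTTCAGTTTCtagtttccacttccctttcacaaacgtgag
Parp12: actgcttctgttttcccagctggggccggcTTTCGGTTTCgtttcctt
Bst2: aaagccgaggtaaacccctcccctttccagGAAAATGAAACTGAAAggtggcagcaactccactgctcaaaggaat

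Windows of Irf1 (chr10:38417763-38417831, plus strand) and Irf8 (chr19:65699074-65699161, plus strand) are added for contrast, with the GAS core in capitals. They were chosen after the values were seen, since both genes are listed for lidocaine and hold a GAS core. Neither promoter held an ISRE core, and Irf8 held 2 GAS cores. Irf4, the other transcription factor listed for lidocaine, held neither core in its window.
Irf1: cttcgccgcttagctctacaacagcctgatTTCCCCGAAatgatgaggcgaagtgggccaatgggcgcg
Irf8: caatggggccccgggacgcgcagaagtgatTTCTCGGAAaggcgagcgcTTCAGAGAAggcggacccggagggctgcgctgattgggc

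**Figure D1:**
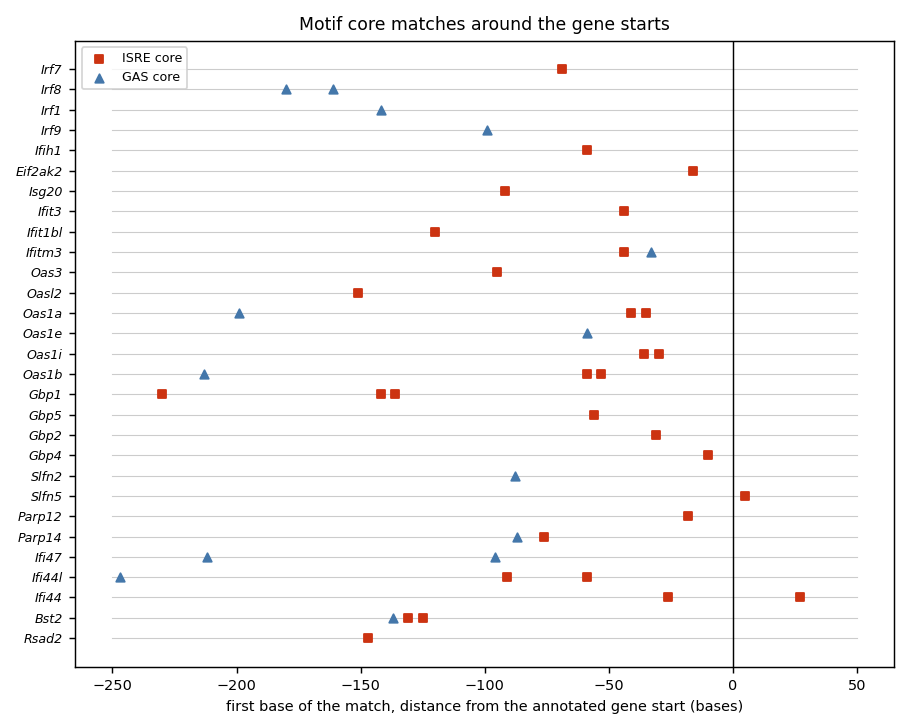
Position of each motif core match (x axis, distance in bases of the first base of the match from the annotated gene start; 0 is the start) in the 29 members with at least 1 match, from RefSeq promoters of build GRCr8. Red squares are ISRE cores and blue triangles are GAS cores; 27 of 31 ISRE matches lie between 150 bases and 1 base before the start.

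Every family of interferon-induced genes was higher in ganglia of imiquimod-treated rats than in untreated ganglia. All 53 members were higher in IMQ and passed the threshold (limma with a mean-variance trend, Benjamini-Hochberg adjusted p under 0.05 over all 4136 listed genes), where 58.9% of all listed genes were higher and passed. Values here and below are levels as log2(normalized count + 1), or differences between group means on that scale, on which changes of low genes come out too small. The differences ran from 1.00 for Oas1b to 6.05 for Oas3, with a median of 2.33, beside a median of 1.89 over the 2528 genes listed as higher. In 52 of 53 members every IMQ library lay above every WT library, as it did in 57.0% of all listed genes. The exception was Oas1b, whose highest WT library lay 0.03 above its lowest IMQ library. The shares of 58.9% and 57.0% are over all listed genes, with those listed as lower among them. Of the 2528 genes listed as higher, 2435 passed and 2356 had every IMQ library above every WT library. The member counts are near these. Because a gene had to differ to be listed, the counts do not show how many interferon-induced genes of the rat changed. For the same reason the adjusted p-values, here and below, cannot be read as false discovery rates. They were computed only among genes selected on these libraries. In bulk tissue, more cells of a type and more RNA per cell cannot be told apart.

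**Figure D2:**
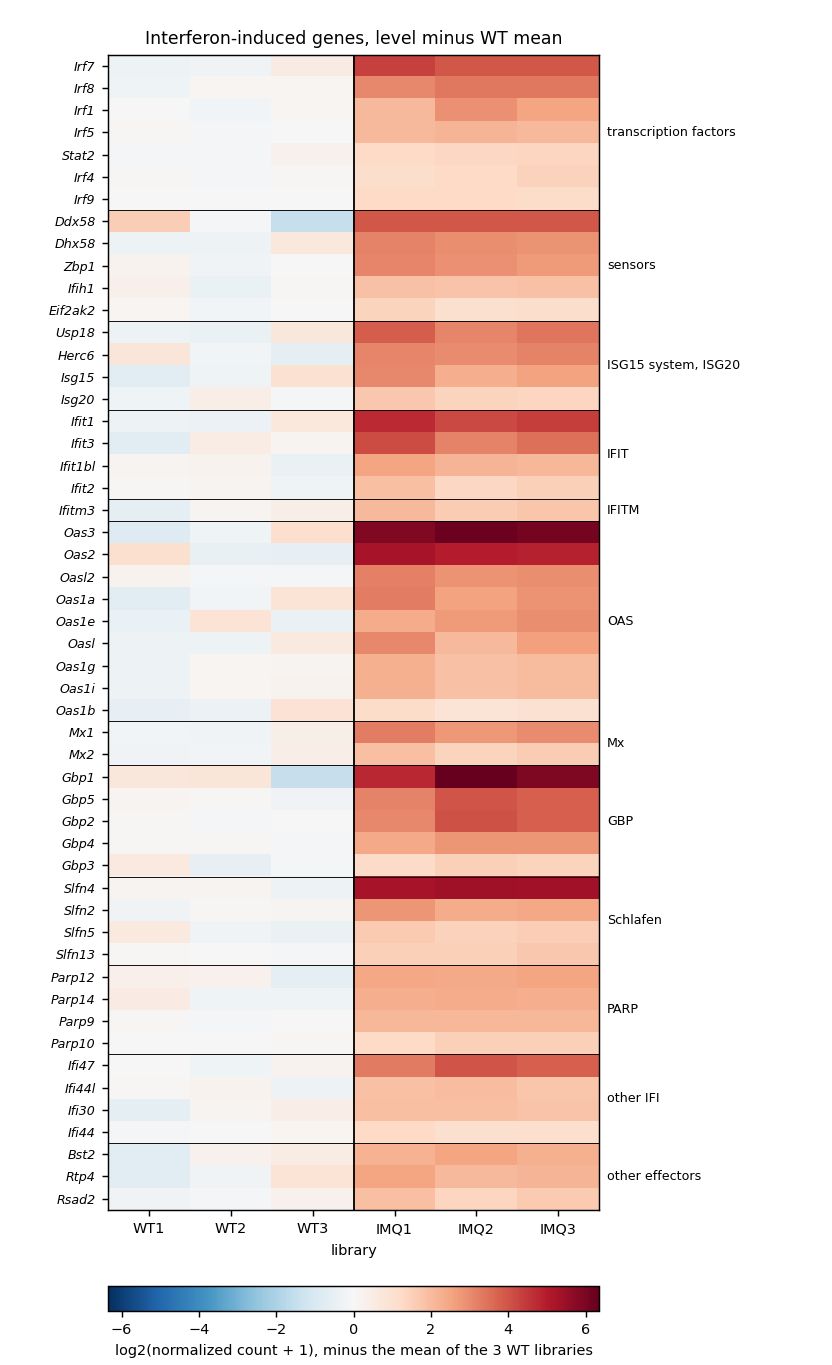
Level of 52 of the 53 members (rows, grouped by family) in each WT and IMQ library (columns), as log2(normalized count + 1) minus the mean of the 3 WT libraries; red is above and blue below that mean. The IMQ columns are red in all rows, most strongly for Oas3, Gbp1, Slfn4 and Oas2.

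Transcription factors of the response come first, with 8 members and a median difference of 1.94. Irf7 (ENSRNOG00000017414), the factor that amplifies type I interferon genes downstream of Toll-like receptor 7, stood at 8.86, 8.99 and 9.73 in WT and 13.53, 13.12 and 13.16 in IMQ. The groups lay far apart, with WT3 the highest of the untreated libraries, and Irf7 rose 16.9-fold (4.08, SE 0.30, limma adjusted p = 0.000112). Irf8 (ENSRNOG00000017869), needed for monocytes, dendritic cells and B cells, stood at 7.38, 7.76 and 7.78 in WT and 10.71, 10.99 and 11.00 in IMQ. No library overlapped and Irf8 rose 9.59-fold (3.26, SE 0.25, limma adjusted p = 0.000123). Irf1 (ENSRNOG00000008144), a factor induced by interferon gamma through a GAS element, stood at 8.52, 8.33 and 8.63 in WT and 10.55, 11.41 and 10.97 in IMQ. Its WT libraries were tight and its IMQ libraries spread over 0.86, with IMQ1 the lowest, around a difference of 2.49 (SE 0.29, limma adjusted p = 0.000589). Irf4 (ENSRNOG00000061070), a factor of plasma cells and activated lymphocytes, stood at 5.67, 5.46 and 5.65 in WT and 6.71, 6.86 and 7.06 in IMQ. Irf4 was lowest in WT2 and rose by 1.29 (SE 0.31, limma adjusted p = 0.00851). Stat2 and Irf9, components of the ISRE-binding complex, rose by 1.31 (SE 0.22, limma adjusted p = 0.00275) and 1.24 (SE 0.21, limma adjusted p = 0.00245). Irf5, which acts with MYD88 in myeloid cells, rose by 2.08.

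Sensors of foreign nucleic acid had a median difference of 2.89 over 5 members. Ddx58 (ENSRNOG00000006384), which encodes the RNA sensor RIG-I, stood at 7.33, 5.66 and 4.30 in WT and 9.73, 9.72 and 9.72 in IMQ. The 3 IMQ libraries were nearly equal, while the WT libraries spanned 3.03, with WT1 the highest and WT3 the lowest, and the difference of 3.96 (SE 0.69, limma adjusted p = 0.00301) carries the second largest standard error of all members. Against WT1 alone the difference was 2.39 and against WT3 alone 5.42. Dhx58 (ENSRNOG00000018247), the helicase LGP2 that modulates RIG-I and MDA5, stood at 6.98, 6.97 and 7.99 in WT and 10.46, 10.24 and 10.18 in IMQ. Here WT3 was the highest of the untreated libraries and the groups did not overlap (2.98, SE 0.34, limma adjusted p = 0.000574). Zbp1, a sensor of Z-form nucleic acid, rose by 2.89, Ifih1, which encodes MDA5, by 1.84, and Eif2ak2, the kinase PKR that halts translation on double-stranded RNA, by 1.19.

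ISG15 is a ubiquitin-like protein that is induced by interferon and attached to other proteins by a chain of enzymes. The members grouped here were 4 genes, with the nuclease gene Isg20 among them, and all were higher, at a median of 2.86. Enzymes of the attaching chain other than Herc6 are not members. Usp18 (ENSRNOG00000037198), the protease that removes ISG15 and damps the type I receptor, stood at 7.24, 7.19 and 8.33 in WT and 11.42, 10.70 and 11.00 in IMQ. All IMQ libraries lay above all WT libraries, with WT3 highest in WT and IMQ1 highest in IMQ (3.45, SE 0.38, limma adjusted p = 0.000476). Herc6 (ENSRNOG00000023969), which is the ligase for ISG15 in mice, stood at 7.89, 6.96 and 6.55 in WT and 10.23, 10.13 and 10.28 in IMQ. In this gene WT1 was the highest untreated library (3.08, SE 0.37, limma adjusted p = 0.000713). Isg15 itself rose by 2.64, or 6.25-fold, and Isg20 rose 2.82-fold.

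The IFIT proteins, which bind foreign RNA ends and block translation, had a median of 2.93 over 4 members. Ifit1 (ENSRNOG00000019050) stood at 7.37, 7.33 and 8.38 in WT and 12.44, 11.88 and 12.06 in IMQ. It rose 21.6-fold without overlap (4.43, SE 0.35, limma adjusted p = 0.000141). Ifit3 (ENSRNOG00000022839), a partner that stabilizes IFIT1, stood at 6.48, 7.59 and 7.31 in WT and 11.25, 10.29 and 10.64 in IMQ. IMQ1 was again the highest library, and Ifit3 rose by 3.60 (SE 0.39, limma adjusted p = 0.000448). Ifit1bl and Ifit2 rose by 2.25 and 1.58. Ifitm3 (ENSRNOG00000015078), a membrane protein that blocks virus fusion, stood at 10.89, 11.62 and 11.80 in WT and 13.50, 13.06 and 13.22 in IMQ. WT1 was the lowest of its untreated libraries, and it rose by 1.82 (SE 0.30, limma adjusted p = 0.00239).

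The OAS family is named for enzymes that make oligoadenylates, which switch on the nuclease RNase L. By symbol, 9 genes of the family were listed, with a median of 2.68, and enzyme activity of the single members was not examined. Oas3 (ENSRNOG00000059207) stood at 0.79, 1.31 and 2.67 in WT and 7.45, 7.79 and 7.68 in IMQ. Its WT values rest on 1, 2 and 6 reads against 144, 197 and 192 reads in IMQ, and the difference was 6.05 (SE 0.53, limma adjusted p = 0.000211). Its order against other members depended on these low WT values: with a pseudocount of 0.1 Gbp1 differed more (6.98 against 6.69), as it did without WT replicate 1 (6.04 against 5.65) and without WT replicate 2 (6.05 against 5.91). With a pseudocount of 10, Oas3 stood at 4.08, below Slfn4 at 5.27, Oas2 at 4.40 and Ifit1 at 4.37. Oas2 (ENSRNOG00000049282) stood at 5.07, 3.60 and 3.55 in WT and 9.32, 9.05 and 8.96 in IMQ. WT1 was above the other WT libraries and all were far below IMQ (5.04, SE 0.47, limma adjusted p = 0.000271). Oas1b (ENSRNOG00000033220), a member known in mice as a flavivirus resistance gene, stood at 9.28, 9.44 and 10.71 in WT and 11.00, 10.68 and 10.76 in IMQ. WT3 reached the level of the IMQ libraries, and the difference of 1.00 (SE 0.40, limma adjusted p = 0.0421) fell to 0.10 against WT3 alone and rose to 1.53 against WT1 alone. The call of Oas1b was lost when any 1 library other than WT3 was left out, with a largest adjusted p of 0.14 without WT replicate 2. Oas1e was close to the lower limit of the counts, with 0, 2 and 0 reads in WT and 5, 7 and 9 in IMQ, so no fold is given. Oasl2, Oas1a and Oasl rose by 3.01, 2.90 and 2.57. Oas1g and Oas1i, at 2.05 and 2.03, had nearly the same reads in every library, such as 145 and 140 in WT1 and 522 and 506 in IMQ1, and as members of a cluster of closely related genes their single values are uncertain.

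Large GTPases of the response formed 2 families. Mx1 (ENSRNOG00000001959), which traps viral ribonucleoproteins, stood at 8.68, 8.65 and 9.23 in WT and 12.12, 11.59 and 11.83 in IMQ. Its groups did not overlap (2.99, SE 0.27, limma adjusted p = 0.000247), and Mx2 rose by 1.64. The guanylate-binding proteins (GBP), which coat pathogen vacuoles and are classically induced by interferon gamma, had the highest family median, 3.61 over 5 members. Gbp1 (ENSRNOG00000023943) stood at 2.21, 2.23 and 0.00 in WT and 6.24, 7.83 and 7.39 in IMQ. It was at 5, 5 and 0 reads in WT and 62, 202 and 156 in IMQ, and the difference was 5.67 (SE 0.73, limma adjusted p = 0.0009). Gbp5 (ENSRNOG00000032240), a promoter of inflammasome activity, stood at 8.23, 8.14 and 7.84 in WT and 11.21, 12.04 and 11.86 in IMQ. WT libraries lay within 0.39 of each other and IMQ1 was the lowest IMQ library (3.63, SE 0.30, limma adjusted p = 0.000157). Gbp2 and Gbp4 rose by 3.61 and 2.68. Gbp3 (ENSRNOG00000036885), a low gene with a mean normalized count of 18.9, stood at 4.08, 2.94 and 3.31 in WT and 4.65, 4.97 and 4.84 in IMQ. WT1 came within 0.57 of IMQ1, and the difference of 1.38 (SE 0.42, limma adjusted p = 0.0189) did not pass without WT replicate 2, IMQ replicate 2 or IMQ replicate 3 (adjusted p = 0.0625, 0.0561 and 0.0602).

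Among Schlafen genes, growth regulators of immune cells, 4 were listed with a median of 2.05. Slfn4 (ENSRNOG00000057092), which marks activated myeloid cells in mice, stood at 8.53, 8.54 and 8.07 in WT and 13.63, 13.73 and 13.71 in IMQ. IMQ libraries spanned 0.11, and this member had the smallest adjusted p of all, with a 39.7-fold rise (5.31, SE 0.23, limma adjusted p = 3.26e-05). Slfn2 (ENSRNOG00000037113), which keeps T cells quiescent in mice, stood at 8.89, 9.20 and 9.29 in WT and 11.92, 11.46 and 11.61 in IMQ. The groups were separate (2.53, SE 0.25, limma adjusted p = 0.000298), and Slfn5 and Slfn13 rose by 1.57 and 1.56. The interferon-induced ADP-ribosyltransferases (PARP) had a median of 2.22 over 4 members. Parp12 (ENSRNOG00000008196) stood at 7.68, 7.60 and 6.74 in WT and 9.78, 9.76 and 9.85 in IMQ. WT3 was the lowest library (2.46, SE 0.32, limma adjusted p = 0.000989). Parp14 (ENSRNOG00000023334), a regulator of macrophage activation, stood at 9.83, 9.03 and 9.03 in WT and 11.60, 11.67 and 11.59 in IMQ. Its IMQ libraries agreed within 0.08 (2.32, SE 0.29, limma adjusted p = 0.000761), and Parp9 and Parp10 rose by 2.11 and 1.42.

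The remaining members are effectors of several kinds. Ifi47 (ENSRNOG00000002470), an immunity-related GTPase induced by interferon gamma, stood at 7.82, 7.53 and 8.02 in WT and 11.11, 11.80 and 11.61 in IMQ. IMQ1 was the lowest of its IMQ libraries and still 3.09 above WT3 (3.71, SE 0.28, limma adjusted p = 0.000121). Ifi44l (ENSRNOG00000049994), a member of a widely used interferon signature, stood at 6.64, 6.78 and 6.25 in WT and 8.42, 8.52 and 8.33 in IMQ. Ifi44l rose by 1.87 (SE 0.29, limma adjusted p = 0.00178), and Ifi30, a thiol reductase of antigen processing, and Ifi44 by 1.86 and 1.12. Bst2 (ENSRNOG00000059900), the tetherin that holds budding virus at the cell surface, stood at 8.47, 9.49 and 9.68 in WT and 11.42, 11.71 and 11.48 in IMQ. WT1 was about 1 below the other WT libraries (2.33, SE 0.35, limma adjusted p = 0.00168). Rtp4 (ENSRNOG00000028895), a chaperone of receptors, stood at 7.79, 8.20 and 9.32 in WT and 10.95, 10.51 and 10.59 in IMQ. WT3 was the highest untreated library (2.25, SE 0.41, limma adjusted p = 0.00364), and Rsad2, which encodes viperin, rose by 1.64.

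**Figure D3:**
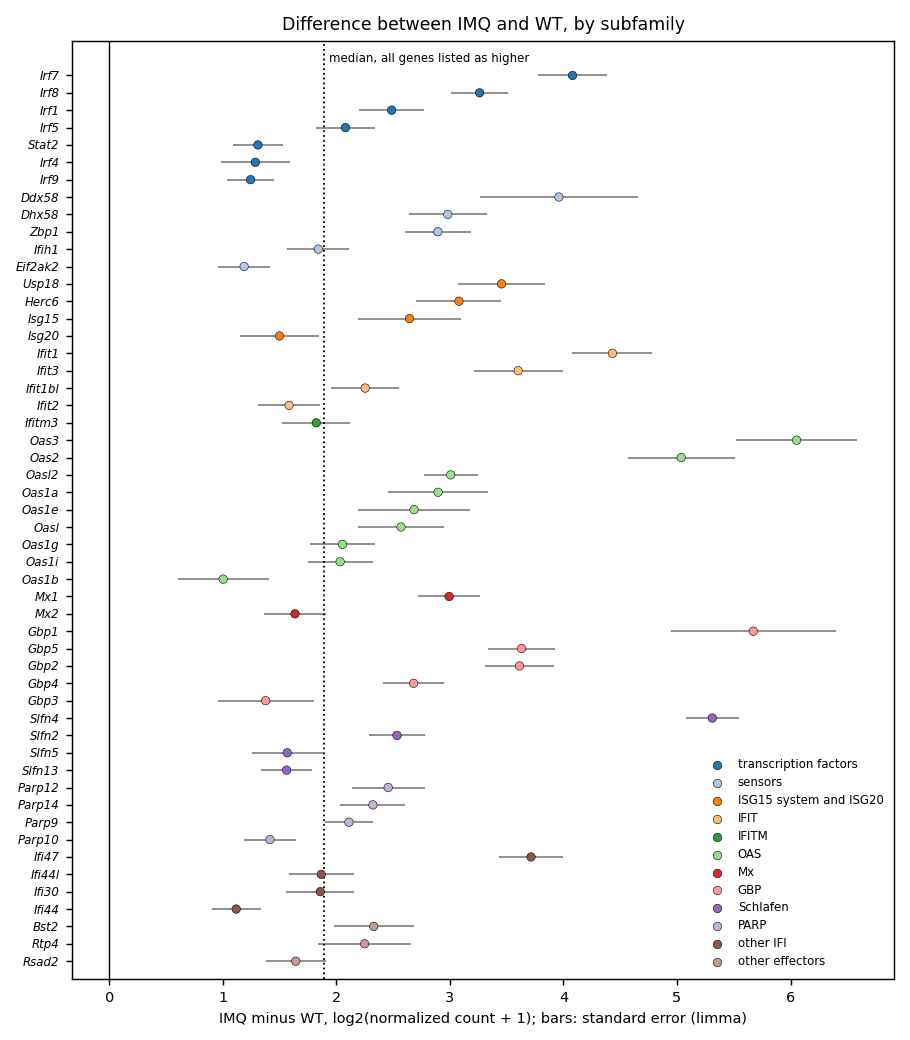
Difference between IMQ and WT group means on the log2(normalized count + 1) scale for 52 of the 53 members, with bars of 1 standard error from limma (3 WT and 3 IMQ libraries), coloured by family. The dotted line is the median of all genes listed as higher in IMQ, 1.89; 34 members lie to its right.

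The IMQ libraries differed among themselves, and the families split by which library was highest. IMQ1 was the highest IMQ library in 29 of 53 members (54.7%), against 38.6% of all genes listed as higher, and the lowest in 19 (35.8%), against 44.0%. It was the highest for 4 of 4 IFIT, 2 of 2 Mx, 7 of 9 OAS and 4 of 5 sensor genes, which lay a median of 0.49, 0.40, 0.32 and 0.24 above the mean of IMQ2 and IMQ3. It was the lowest for 5 of 5 GBP genes, at a median of 0.74 below, and for 6 of 8 transcription factors, at a median of 0.17 below. The factors ran from 0.64 below for Irf1 to 0.39 above for Irf7. Ifi47 was 0.59 lower in IMQ1. A list of 44 other interferon-induced genes had 30 symbols listed, in 31 rows. The list lay on both sides as well, with IMQ1 lowest in 17 rows and highest in 9 (median 0.12 below). Its chemokines Cxcl9, Cxcl10 and Cxcl11, ligands of the T cell receptor CXCR3, lay 1.33, 1.06 and 0.81 below in IMQ1. The class II regulator Ciita lay 1.00, the class I regulator Nlrc5 0.76, the peptide transporter gene Tap1 0.73 and the immunoproteasome gene Psmb9 0.70 below. Apobec1, Psmb8 and Lgals3bp lay 0.54, 0.22 and 0.25 above. This split was noticed in the values, concerns 1 library and was given no test. Of 5 listed neutrophil markers 4 were highest in IMQ1 (median 0.71 above), and the glial genes Glul and Gja1 were highest there as well (median 0.68). Macrophage and monocyte markers were lowest in IMQ1 for 8 of 13 and highest for 4 (median 0.04 below, with Cd163 0.80 below), and plasmacytoid dendritic cell markers were lowest there for 2 of 3 (median 0.69 below). T and NK cell markers were highest in IMQ1 for 4 of 10 and lowest for 0 (median 0.05 above). B and plasma cell markers were highest for 3 of 5 and lowest for 1 (median 0.06 above). Endothelial markers were highest for 2 of 3 and lowest for 1 (median 0.13 above), and sensory neuron markers highest for 2 of 3 (median 0.03 above). The part of these cell types in the split was not tested. Among promoters, an ISRE core stood in 13 of 18 matched members with IMQ1 highest and in 6 of 16 with IMQ1 lowest, and the 6 include 4 of 4 matched GBP genes. It stood in 4 of 5 with IMQ1 between the others. A GAS core stood in 5 of 18 (27.8%) and 5 of 16 (31.2%) of the members with IMQ1 highest and lowest.

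**Figure D4:**
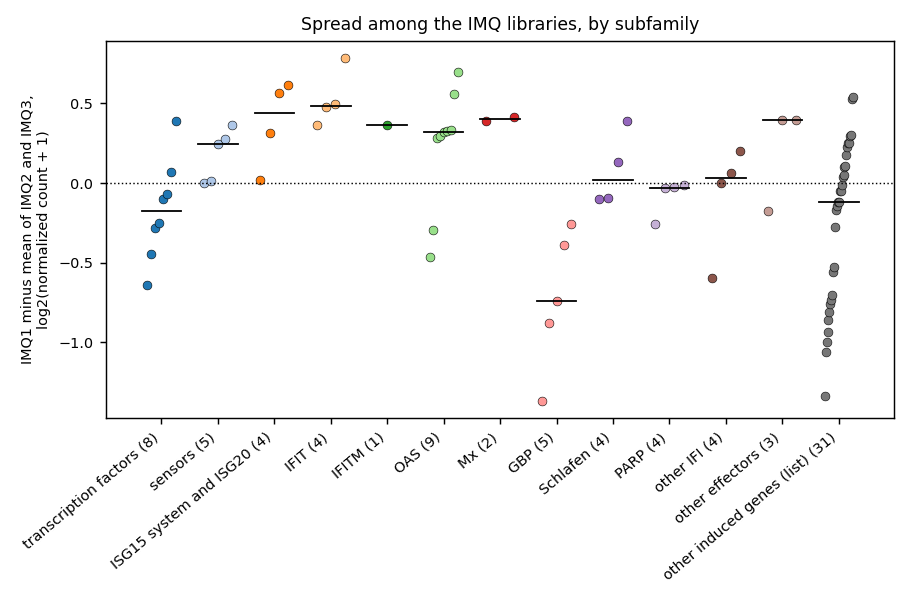
Level in IMQ1 minus the mean of IMQ2 and IMQ3, on the log2(normalized count + 1) scale, for each member by family (number of genes in parentheses) and for the list of other interferon-induced genes; bars are medians. All 4 IFIT and both Mx genes lie above 0 and all 5 GBP genes below.

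WT libraries also differed, and in both directions. WT3 lay above WT1 in 28 of 53 members and in 2174 of all 4136 listed genes, with medians of 0.11 and 0.12. Over the 2528 genes listed as higher, WT3 lay above WT1 in 745, with a median of -0.62. Ddx58, Oas2 and Herc6 were lower in WT3 by 3.03, 1.52 and 1.34, while Isg15, Oas1a and Rtp4 were higher there by 1.66, 1.63 and 1.53. Across the 50 members with a genomic span in RefSeq GRCr8, the WT3 minus WT1 difference and the span had a Spearman rho of -0.52. It was -0.51 across 3241 listed genes with a span and -0.46 across 2062 genes listed as higher. These are descriptions across genes, which share the same 2 libraries and are not independent replicates. The median IMQ difference of the members was 2.39 against WT1 alone and 2.09 against WT3 alone.

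Upstream genes of the pathway were listed in part. Of 12 interferon genes, type I, II and III, none was listed, which shows only that none met the selection. Among 6 receptor subunits, Ifnlr1, the interferon lambda receptor, was listed and rose by 1.65 (SE 0.36). Of 20 symbols for kinases, adaptors and Toll-like receptors, 10 were listed and all 10 passed as higher, at a median of 2.07. The 20 include both an older and a newer symbol for STING and for cGAS. They included Tlr7, the receptor for imiquimod, at 7.25, 5.89 and 7.20 in WT and 10.26, 10.04 and 10.20 in IMQ, a rise of 3.39 (SE 0.41, limma adjusted p = 0.000665). Tlr9 and Tlr8 rose by more than Tlr7, by 4.90 and 4.36, and Tlr3 by 1.93. Tlr9 was low in WT, at 3.57, 1.69 and 0.00. The Tlr7 adaptor Myd88 rose by 1.61, the kinase Jak2 by 1.30, the DNA sensor gene Mb21d1 (cGAS) by 2.22 and Tmem173 (STING) by 1.38. Negative regulators were listed for 6 of 10 symbols, all higher and past the threshold, with the cytokine signalling inhibitor Socs3 at 4.96 and the phosphatase Ptpn6 at 2.23. The list of other induced genes had 31 rows, since Trim30c had 2, and all 31 passed as higher, at a median of 2.42. For comparison, the 2528 genes listed as higher had a median of 1.89, and 2435 of them passed. Cxcl11 and Cxcl9 rose by 5.30 and 4.53, and the GTPases Igtp and Irgm by 3.39 and 3.17. XAF1, whose symbol is in capitals and so fell outside the pattern, stood at 7.12, 6.66 and 6.78 in WT and 9.20, 9.45 and 9.34 in IMQ, a rise of 2.48 (SE 0.27, limma adjusted p = 0.000444).

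Markers of immune cells moved with the members, and their part in the result was not tested. Of 14 macrophage and monocyte markers 13 were listed and higher, with a summed normalized count of 13440 to 16140 in WT and 127100 to 156300 in IMQ. Lyz2 makes up most of that IMQ sum, at levels of 16.3 to 16.7. T and NK cell markers were listed and higher for 10 of 11, from 296.3 to 621.9 in WT and 3526 to 3694 in IMQ. Cd4 alone makes up most of these sums, at levels of 7.3 to 9.0 in WT and 11.2 in IMQ. B and plasma cell markers were listed for 5 of 8, of which 4 were higher and 1 lower, with 220.6 to 409.6 in WT and 5540 to 8656 in IMQ. Igh-6 makes up most of that IMQ sum, at levels of 11.9 to 12.8. Neutrophil markers were listed and higher for 5 of 10, with 787.5 to 1937 in WT and 4418 to 7475 in IMQ. For plasmacytoid dendritic cells, which make type I interferon through Toll-like receptor 7, 3 of 7 markers were listed and higher, at 74.96 to 228.5 in WT and 572.4 to 668.4 in IMQ. Of these, Siglech and Ccr9 were at 0 in all 3 WT libraries, so the WT sum is Tcf4 alone. Tcf4 also makes up most of the IMQ sum, at levels of 9.0 to 9.3. In the same libraries Siglech stood at 4.5 to 5.2 and Ccr9 at 3.2 to 4.3. Endothelial markers were higher for 3 of 5, with 3219 to 3606 in WT and 7290 to 8973 in IMQ, and glial markers for 2 of 11, with 16170 to 17520 and 32580 to 61210. The 3 listed sensory neuron markers were lower.

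Under epidural lidocaine with imiquimod, few interferon-induced genes were listed. They were 4 of 53 members (7.55%), all lower than with imiquimod alone, where 20.3% of the genes listed as higher in IMQ were also listed as lower under lidocaine. The 4 were the transcription factors Irf1, Irf4 and Irf8 and the GTPase gene Gbp3. All 4 passed limma's threshold, as did 87.1% of the 775 listed genes in the lower direction. In all 4 both lidocaine libraries lay below every IMQ library, as in 89.2% of listed genes. The other 49 members, which include every listed sensor, ISG15, IFIT, IFITM, OAS, Mx, Schlafen, PARP and other effector gene, did not meet the selection, and their levels under lidocaine were not analysed here. Irf7, Stat2 and Irf9 are among the 49. The IMQ libraries enter both comparisons with opposite sign, so the opposite directions are not independent.

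Irf8 stood at 10.71, 10.99 and 11.00 in IMQ and 9.71 and 9.73 in lidocaine. Both lidocaine libraries were nearly equal and about 1 below the lowest IMQ library, and Irf8 fell by 1.18 (SE 0.22, limma adjusted p = 0.00532). Irf4 stood at 6.71, 6.86 and 7.06 in IMQ and 5.05 and 4.67 in lidocaine. It fell by 2.02, the largest fall of the 4 (SE 0.31, limma adjusted p = 0.00421), on 26 and 22 reads under lidocaine. Irf1 stood at 10.55, 11.41 and 10.97 in IMQ and 9.86 and 10.06 in lidocaine. Lidocaine2 came within 0.49 of IMQ1, and Irf1 fell by 1.02 (SE 0.30, limma adjusted p = 0.0182). That call was lost without either lidocaine library, and without IMQ replicate 3 (adjusted p = 0.118 without lidocaine replicate 1, 0.075 without lidocaine replicate 2 and 0.0607 without IMQ replicate 3). Gbp3 stood at 4.65, 4.97 and 4.84 in IMQ and 2.23 and 3.85 in lidocaine. The lidocaine values rest on 3 and 12 reads, and Gbp3 fell by 1.78 (SE 0.55, limma adjusted p = 0.0216). Without lidocaine replicate 1 the Gbp3 difference was -0.97 (adjusted p = 0.0772), and without IMQ replicate 3 it was -1.77 (adjusted p = 0.0536), so neither passed.

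**Figure D5:**
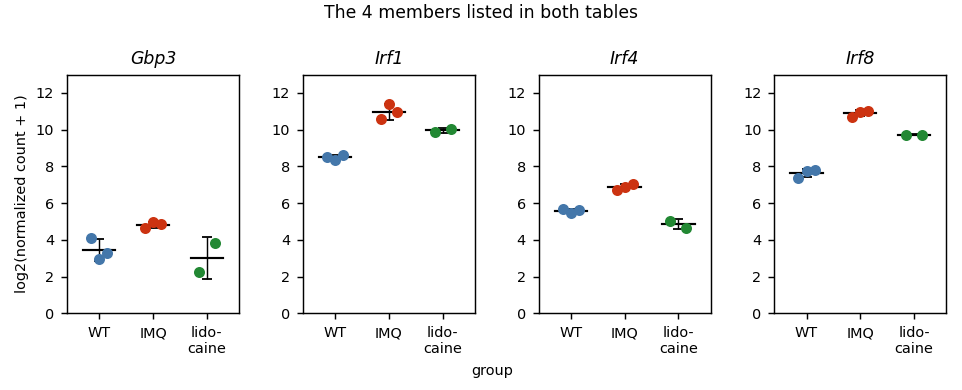
Level of the 4 members listed in both tables, as log2(normalized count + 1), in each WT (n = 3), IMQ (n = 3) and lidocaine (n = 2) library; horizontal lines are group means and bars are 1 SD. Irf8 and Irf1 under lidocaine lie between WT and IMQ, and Irf4 lies below its WT libraries.

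Because IMQ values agree between the tables within 4.98e-09, the 560 shared genes could be fitted over all 3 groups to set lidocaine against WT. Of the 4 members 2 were higher under lidocaine than in WT and past the threshold, where 37.5% of the 560 genes were. Irf8 was 2.08 above WT (SE 0.24, limma adjusted p = 0.000189) and Irf1 1.46 above (SE 0.29, limma adjusted p = 0.00305). Irf4 differed from WT by -0.73 (SE 0.34, limma adjusted p = 0.111) and Gbp3 by -0.40 (SE 0.59, limma adjusted p = 0.644), neither past the threshold. The sign for Gbp3 rests on 1 library, since the difference was 0.40 without lidocaine replicate 1 and -1.21 without lidocaine replicate 2. Without the authors' normalization, Irf1 no longer passed (0.88, adjusted p = 0.0671) and Irf4 passed as lower (-1.30, adjusted p = 0.0221).

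Other genes of the pathway were listed for lidocaine in small number. Of the kinases, adaptors and Toll-like receptors, Tlr9 alone was listed, and it fell by 1.22 (SE 0.34). Of the negative regulators Socs3, Tnfaip3 and Ptpn6 fell by 1.83, 1.19 and 1.00. Of the 44 other induced genes Ciita and Cxcl11 were listed, and they fell by 2.27 and 1.89. No interferon and no interferon receptor was listed. Immune cell markers were lower in the same libraries, and their part in the falls of Irf1, Irf4, Irf8 and Gbp3 was not tested. All 8 B and plasma cell markers were listed and lower, with a summed normalized count of 5768 to 8831 in IMQ and 149.3 to 216.9 in lidocaine. Igh-6 makes up most of that IMQ sum. Macrophage and monocyte markers were listed and lower for 7 of 14, with 109400 to 138100 in IMQ and 44420 to 51310 in lidocaine. Lyz2 makes up most of both macrophage sums, at levels of 16.3 to 16.7 in IMQ and 15.1 and 15.2 in lidocaine. T and NK cell markers were lower for 8 of 11 (1114 to 1262 and 411.3 to 483.0), neutrophil markers for 6 of 10 (2724 to 6950 and 1418 to 1506) and plasmacytoid dendritic cell markers for 2 of 7 (122.8 to 143.9 and 36.96 to 54.61). Cd4 was not among the 8 T and NK cell markers. Of 11 glial markers 1 was listed, at 30740 to 57740 and 19800 to 19970, and it did not pass.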

How the data were processed

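Tools named in the submitters' processing notes are STAR 2.5.3a, bcl2fastq and DESeq2, with no role stated. No build, annotation or strand setting is given in the sources used here, and overlapping genes on opposite strands cannot be separated. The files deposited by the authors are 2 tables of log2(normalized count + 1) values per library, a scale read from the values: in every library 100% of the values checked (up to 2000 reads) came out as whole reads, within 0.02 reads. Each table was tested in R 4.3.3 by limma 3.58.1, using a trend of the variance on the mean, on genes with a mean normalized count of at least 1 (none was removed), and p-values were Benjamini-Hochberg adjusted over the whole table. The main test was run on the log2 values as deposited, and reads recovered from them were tested only with limma-voom, as an alternative; no negative binomial count model was run. The fit was also run on simulated counts with a fixed spread and most genes unchanged. Listed genes were selected for a difference, so that run does not show how the fit performs on them. Members, families, pathway lists, markers and tests were chosen with earlier results of these data known. Per-library values are given for the 2 largest differences of each family with a mean normalized count of at least 50 (1 in families of 1 or 2 members), for every member listed for lidocaine, and for Oas1b, Tlr7 and XAF1, which were added after their values were seen. Libraries of a group differed by more than sampling noise (median chi-square 2.33 to 129, 0.455 from counting alone), so none was counted as the same library deposited again; this does not show separate animals. Alternatives were other pseudocounts, filters and thresholds, limma without trend, limma-voom on recovered reads, no normalization, a replicate block and each library left out. The single values of 1 member are not reported here, though it enters the counts and medians.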

Additional observations from a re-analysis of the deposited data

How the results depend on the processing

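For IMQ against WT, all 53 members kept their direction under every alternative run, 846 of 846 member and setting pairs. The number past the threshold was 50 without the authors' normalization, a setting that lowers the median of all listed genes by 0.53, 52 with the replicate number as a block, 51 at an adjusted p under 0.01, and 51 to 53 with a library left out. With a mean normalized count of at least 50, 51 of 51 passed. Without normalization Gbp3, Oas1b and Irf4 were lost (adjusted p = 0.105, 0.212 and 0.0614). For lidocaine against IMQ, 2 of 4 members passed at an adjusted p under 0.01, namely Irf4 and Irf8, and 2 to 4 passed with a library left out; the count was 2 without IMQ replicate 3 and 2 without lidocaine replicate 1. With the replicate block 3 passed, without Irf1 (adjusted p = 0.0638). For lidocaine against WT, 2 members passed under each alternative, Irf8 and Irf1 except without normalization. Direction was kept in 59 of 59 and 70 of 71 pairs of these comparisons; the exception was Gbp3 against WT without lidocaine replicate 1 (0.40). Leaving out 1 of the 2 lidocaine libraries leaves a lone sample that is assumed to vary like the IMQ group. Replicate numbers did not pair samples: same-numbered libraries deviated with correlations of -0.159, -0.058 and -0.118 between WT and IMQ, and 0.0163 and 0.044 between IMQ and lidocaine.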
